A study of Mus musculus with 2 samples.

Results

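The cytochrome P450 genes were described in RNA-seq counts from imiquimod-treated mouse ear skin. Members were taken by symbol alone, as every protein-coding gene named Cyp followed by digits, letters and digits, with Cyp51 left out. The count table held 94 such genes among 34745 genes in all. The family was picked for description with its values in these libraries known, so its counts and ratios are given as they stand and support nothing further. The groups were 1 library labelled KAT8-cKO, the usual short form for a conditional knockout of the histone acetyltransferase gene Kat8, and 1 library labelled WT, wild type. Per the labels' protocols, each ear in both groups was given 30 mg of 5% imiquimod cream on each of 3 days, and tissue was taken on day 4. Imiquimod activates the innate receptor TLR7, and its repeated use on mouse skin gives a psoriasis-like inflammation. Both libraries therefore come from treated skin, and no untreated skin was analysed here. No source used here gives the Cre driver, strain, age, sex or number of animals behind a library.

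P450 enzymes are haem proteins that insert oxygen into lipids, hormones, vitamins and foreign compounds. Those in the endoplasmic reticulum take electrons from P450 reductase, the product of Por, and those in mitochondria take them from ferredoxin. The family is best known from liver, while skin uses some of its enzymes to break down retinoic acid, build barrier lipids, turn over leukotrienes and oxidise compounds that reach the surface. Subfamilies are written as a number and letters, so that Cyp26b1 belongs to CYP26B.

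With 1 library per group there were no replicates. The spread between animals is therefore unknown, no difference was tested, and every comparison describes these 2 libraries and not the genotypes. Ratios carry exact 95% intervals (Clopper-Pearson) that cover counting error only. The libraries held 13727524 counts in the one labelled KAT8-cKO and 12179608 in the one labelled WT. Kat8 itself had 351 counts in the library labelled KAT8-cKO and 219 in that labelled WT, a ratio of 1.27 (interval 1.07 to 1.51), so the targeted gene was not lower and the libraries are named by their labels throughout. Whether the labels were exchanged was not tested, and an exchange would turn the direction of every ratio given here. The table gives 1 value over the whole gene, whose exons in part also belong to Prss8. Xist, made from the inactive X chromosome, had 6 counts under the KAT8-cKO label and 11891 under the WT label, and Y-linked Eif2s3y had 838 under the KAT8-cKO label and 0 under the WT label. These transcripts follow a male pattern under the KAT8-cKO label and a female pattern under the WT label. Genotype label and sex therefore cannot be told apart in any value below. Several mouse P450 genes differ by sex in liver.

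Of the 94 members, 46 (48.9%) had at least 1 count in either library, against 77.0% of all 21556 protein-coding genes in the table. In the library labelled KAT8-cKO 44 were detected, and in that labelled WT 41. A member was called measured when it reached 1 CPM (count per 1000000, scaled by the trimmed mean of M values) in either library, which 36 did. Another 10 had counts below that level, at most 12 (Cyp2a5 under the KAT8-cKO label). The remaining 48 had 0 counts in both libraries, which allows a level of up to 0.207 CPM in the library labelled KAT8-cKO and 0.260 CPM in that labelled WT. That limit holds only if reads of these genes were assigned to them. No source used here says how reads matching several related genes were counted. Among these 48 were whole subfamilies best known from liver. All 15 CYP2C genes, drug and arachidonic acid metabolisers, and all 5 CYP4A genes, fatty acid hydroxylases, had no counts. No counts were found either for Cyp1a2, an oxidase of caffeine and aromatic amines, Cyp7a1, which starts bile acid synthesis, Cyp19a1, the aromatase that makes oestrogens, Cyp21a1, a corticosteroid enzyme, and Cyp24a1, which inactivates vitamin D. Of 8 CYP2D genes Cyp2d22 alone was detected, and of 7 CYP3A genes 3 were. The 8 hepatocyte markers summed to 17 counts under the KAT8-cKO label and 14 under the WT label, none reached 1 CPM, and Tat, Apob and Fgb were at 0 in both libraries. Detection in CYP4F, with 7 of 9 genes, and CYP2B, with 4 of 5, was near the 77.0% of all protein-coding genes. CYP2J, with 4 of 8, lay near the family's 48.9%. The CYP4F and CYP2B numbers include Cyp4f40 and Cyp2b9, each with 2 counts under the KAT8-cKO label and 0 under the WT label.

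**Figure D1:**
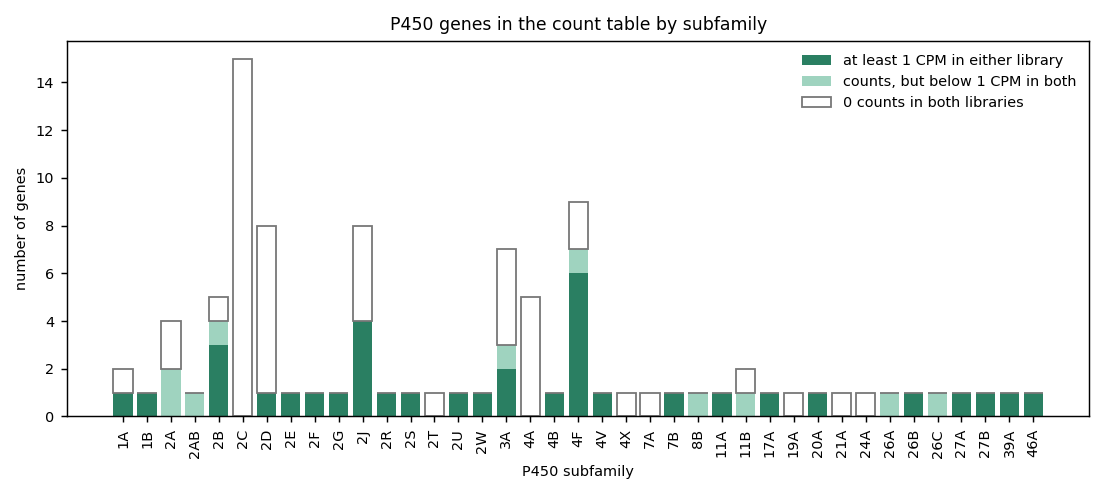
Bars count the P450 genes of each subfamily in the table, split into those with at least 1 CPM in either library, those with counts but below 1 CPM in both, and those with 0 counts in both. CYP2C is the tallest bar, with 15 genes that all had 0 counts, and CYP4F holds the most measured genes, 6 of 9.

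The 2 libraries used different members most. Levels between genes are given as CPM per kilobase of exon. In the library labelled KAT8-cKO the highest was Cyp7b1 (33.7 CPM per kilobase), followed by Cyp4f39 (30.7) and Cyp26b1 (26.4). In that labelled WT it was Cyp2e1 (160.2 CPM per kilobase), followed by Cyp4f18 (84.6) and Cyp2f2 (32.9). Cyp2e1, which oxidises ethanol and other small molecules, ranked 29 of 94 in the library labelled KAT8-cKO and first in the other. It made up 0.266% of all P450 counts in the library labelled KAT8-cKO and 32.5% in that labelled WT. The family summed to 753 CPM in the library labelled KAT8-cKO and 1064 CPM in that labelled WT, a ratio of 0.707 (interval 0.689 to 0.726). Without Cyp2e1, left out after its value was seen, the sums were 751 CPM under the KAT8-cKO label and 719 CPM under the WT label, a ratio of 1.04 (1.02 to 1.08).

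**Figure D2:**
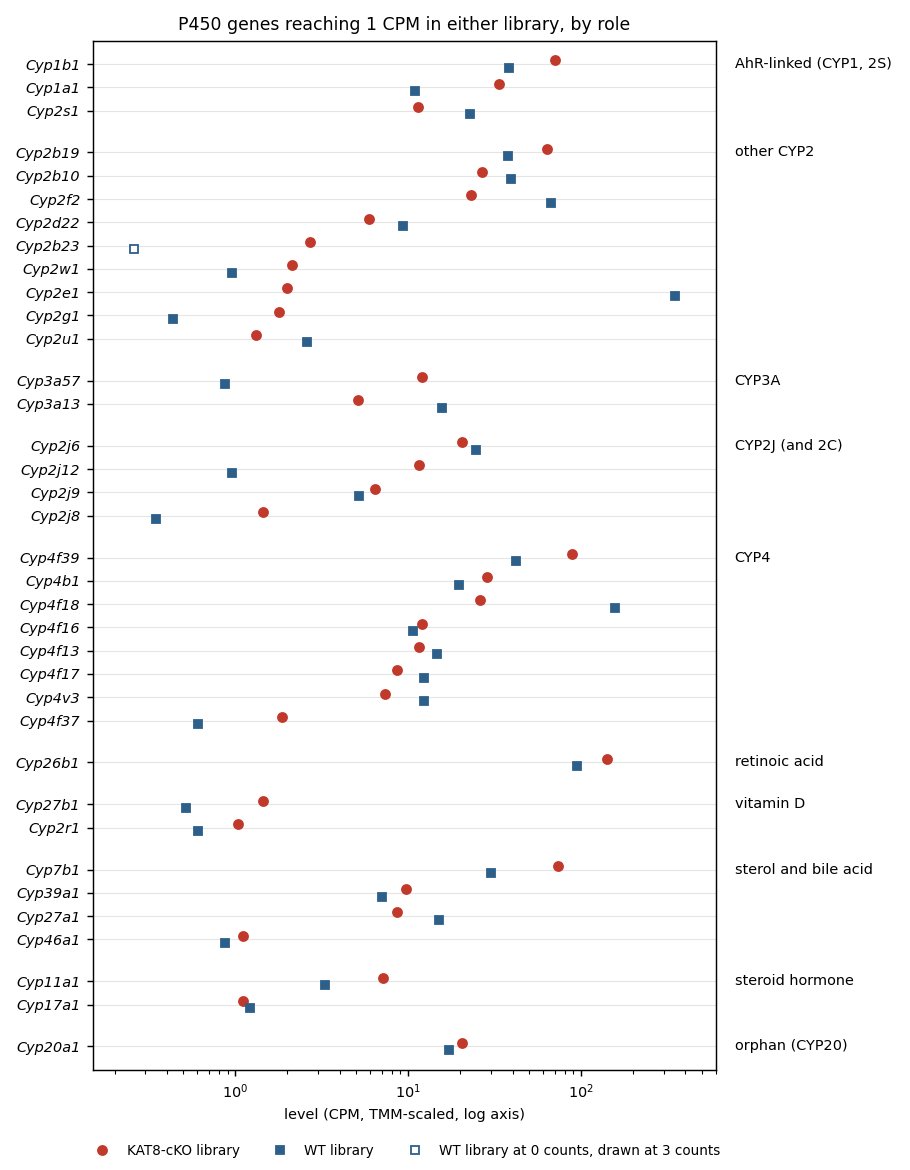
Points give the level of the 36 measured P450 genes in CPM on a log axis, with the library labelled KAT8-cKO as circles and the library labelled WT as squares, grouped by role. Cyp2e1 has the widest gap, at 1.998 CPM in the library labelled KAT8-cKO and 346 CPM in the library labelled WT, and Cyp2b23 is drawn at the level of 3 counts in the library labelled WT because it had none there.

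Gene by gene, the family was split. The log2 ratio is that of (CPM + 1) in the library labelled KAT8-cKO over that labelled WT, and a gene was counted as higher or lower from a size of 1 on this scale, that is 2-fold. Everything below called past, inside or within 2-fold is so on this scale, and the added 1 CPM keeps some low genes with a larger plain ratio inside it. Of 36 measured members 6 were higher, against a background of 4.56% of all 15240 measured genes, and 4 were lower, against 8.63%. The higher ones were Cyp1a1, Cyp2b23, Cyp2j12, Cyp3a57, Cyp4f39 and Cyp7b1. The lower ones were Cyp2e1, Cyp2f2, Cyp3a13 and Cyp4f18. The same shares, 13.2% in both directions together, are the background for the pathway and marker list counts below. The median log2 ratio of the measured members was 0.30, against 0.01 for all measured genes, and 22 of 36 lay above 0. The quartiles were -0.55 and 0.86 for the members, and -0.38 and 0.33 for all genes. The filter bears on this, because 10 members reached 1 CPM only in the library labelled KAT8-cKO and none only in that labelled WT. Over all genes 470 passed only under the KAT8-cKO label and 608 only under the WT label. Among the 26 members with 1 CPM in both libraries, 3 were higher (background 3.88%) and 4 lower (7.89%), and the median was -0.17. The genes nearest that limit were Cyp4f39, past it at 1.04, and Cyp2g1 at 0.96 and Cyp2s1 at -0.95, both short of it.

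**Figure D3:**
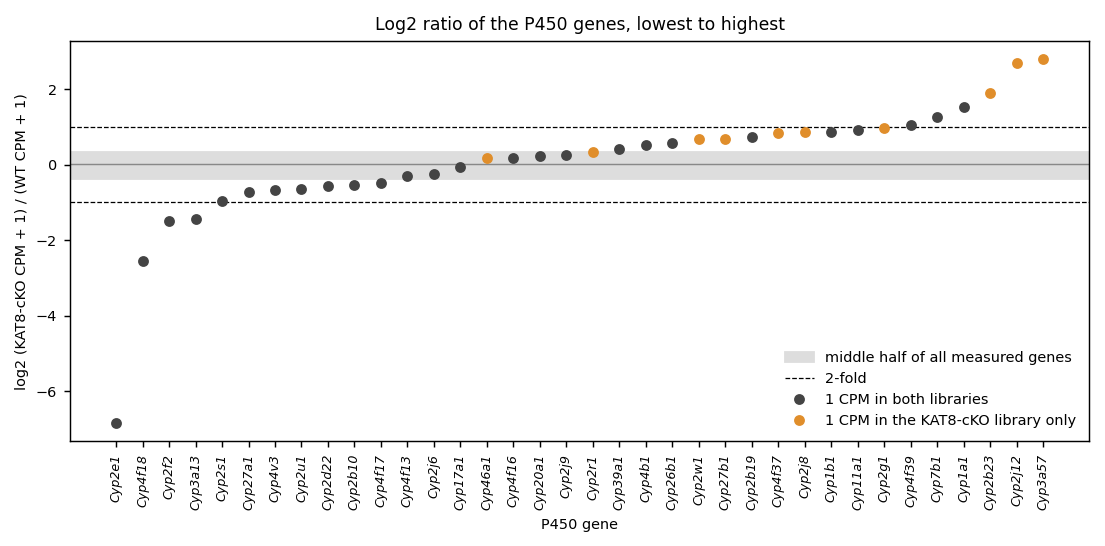
Each point is the log2 ratio of a measured P450 gene, KAT8-cKO over WT with 1 CPM added to both, ordered from lowest to highest. The grey band is the middle 50% of all 15240 measured genes, from -0.38 to 0.33. The 10 orange points reached 1 CPM in the library labelled KAT8-cKO only, which by itself places them above 0.

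Promoter letters are shown for 5 of the 10 genes past 2-fold, which are Cyp1a1 as the classical target of the aryl hydrocarbon receptor (AhR), Cyp4f39 as the barrier lipid enzyme, and the genes with the highest (Cyp3a57, Cyp2j12) and lowest (Cyp2e1) ratios. They come from RefSeq on GRCm38.p6 and run from base -250 to base -1 before the transcript start, except Cyp2e1, where the bases that GENCODE places in an exon are left out and the stretch ends at -81. Capitals mark GCGTG, the core bound by AhR, TATAAA, the TATA box, AGGTCA, the half-site of many nuclear receptors, and GGGCGG, the GC box, each searched on both strands.
Cyp1a1, chr9:57697363-57697612, plus strand: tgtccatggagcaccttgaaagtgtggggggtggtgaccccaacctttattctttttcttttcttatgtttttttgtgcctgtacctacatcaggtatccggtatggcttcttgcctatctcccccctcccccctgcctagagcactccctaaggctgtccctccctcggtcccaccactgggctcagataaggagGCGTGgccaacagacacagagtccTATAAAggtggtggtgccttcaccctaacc
Cyp4f39, chr17:32452473-32452722, plus strand: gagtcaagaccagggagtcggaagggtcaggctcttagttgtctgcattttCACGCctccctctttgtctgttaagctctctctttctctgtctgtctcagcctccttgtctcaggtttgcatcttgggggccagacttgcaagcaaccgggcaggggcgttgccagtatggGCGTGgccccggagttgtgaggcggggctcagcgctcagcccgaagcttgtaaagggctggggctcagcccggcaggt
Cyp2j12, chr4:96141153-96141402, minus strand: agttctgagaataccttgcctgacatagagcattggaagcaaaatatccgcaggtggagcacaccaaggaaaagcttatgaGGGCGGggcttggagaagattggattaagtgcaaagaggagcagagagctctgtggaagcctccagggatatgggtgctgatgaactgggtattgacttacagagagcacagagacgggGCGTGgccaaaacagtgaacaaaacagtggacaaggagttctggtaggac
Cyp3a57, chr5:145345019-145345268, plus strand: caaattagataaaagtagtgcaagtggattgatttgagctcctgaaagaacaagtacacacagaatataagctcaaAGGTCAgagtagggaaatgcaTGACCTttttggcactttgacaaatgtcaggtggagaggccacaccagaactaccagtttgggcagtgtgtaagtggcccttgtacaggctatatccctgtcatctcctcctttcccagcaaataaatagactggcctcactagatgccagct
Cyp2e1, chr7:140763569-140763738, plus strand: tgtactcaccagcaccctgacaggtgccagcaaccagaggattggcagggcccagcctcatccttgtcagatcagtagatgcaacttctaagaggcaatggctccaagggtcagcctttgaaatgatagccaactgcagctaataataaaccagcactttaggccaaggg

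Cyp1a1 had GCGTG beginning 54 bases and TATAAA beginning 30 bases before the start. Cyp2j12 had GCGTG at base -50, and Cyp4f39 had it at -78 and, on the other strand, at -199. Cyp3a57 had AGGTCA at -174 and, on the other strand, at -153. The RefSeq start of Cyp1a1 lies inside the gene as GENCODE draws it. The printed bases of Cyp2e1 held none of the 4 motifs, and its TATAAA lies at -31, past their end. A window was found for 29 of the 36 measured members, among them 9 of the 10 past 2-fold. GCGTG stood in 11 of the 29 (37.9%), and in 28.2% of all 32851 promoter windows of this length. AGGTCA stood in 5 of 29, against 14.0% of all windows, GGGCGG in 12 of 29, against 32.7%, and TATAAA in 3 of 29, against 12.4%. Of these 11 members Cyp2b10 (log2 ratio -0.55) and Cyp4v3 (-0.67) lay below 0 and the others above it. Among all 36 measured members 22 lay above 0. Those of the 11 past 2-fold were Cyp1a1, Cyp2j12 and Cyp4f39, all higher. Whether the motif bears on any ratio was not tested. These matches are letters in a window and not binding sites.

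Among P450 genes linked to AhR, Cyp1a1 was higher in the library labelled KAT8-cKO, while Cyp1b1 and Cyp2s1 lay on opposite sides of 0 and inside 2-fold on the log2 scale. Cyp1a1 (chromosome 9 from 57687928 to 57703824), which oxidises aromatic compounds and clears AhR ligands, had 482 counts (33.2 CPM) in the library labelled KAT8-cKO and 125 (10.9 CPM) in that labelled WT. That is a ratio of 3.06 (interval 2.51 to 3.76). Cyp1b1, a related enzyme that also hydroxylates oestrogens, had 1022 counts under the KAT8-cKO label and 438 under the WT label, a ratio of 1.85 (1.65 to 2.08), inside 2-fold. Cyp2s1, an epithelial P450 outside the liver, had 164 counts in the library labelled KAT8-cKO and 263 in that labelled WT, a ratio of 0.495 (0.405 to 0.604) and -0.95 on the log2 scale with the added 1 CPM. An exon of Cyp2s1 overlaps Gm26707, which had 4 counts under the KAT8-cKO label and 2 under the WT label. Other AhR genes did not go one way. Of 10 measured, 1 was higher (background 4.56%) and 3 were lower (8.63%), with a median of -0.43. Aldh3a1, an aldehyde dehydrogenase induced by AhR ligands, had 152 CPM in the library labelled KAT8-cKO and 20.2 CPM in that labelled WT. Tiparp, a feedback inhibitor of AhR, had 82.3 CPM under the KAT8-cKO label and 193 CPM under the WT label, and among conjugating enzyme genes Ugt1a6a was 4.95-fold lower and Gsta1 3.78-fold lower. Ugt1a6a shares exons with other Ugt1a genes. The receptor gene Ahr had 56.4 CPM in the library labelled KAT8-cKO and 33.9 CPM in that labelled WT.

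The CYP2 genes outside the AhR group and CYP2J held the family's largest difference. Cyp2e1 (chromosome 7 from 140763739 to 140774987) had 29 counts (1.998 CPM) in the library labelled KAT8-cKO and 3983 (346 CPM) in that labelled WT. It was 173-fold lower (interval 120.3 to 259). Mouse fat expresses Cyp2e1, and the 12 adipocyte markers summed to 597 CPM in the library labelled KAT8-cKO and 4838 CPM in that labelled WT, 8.11-fold lower (7.93 to 8.29). The most abundant, Car3, had 152 CPM under the KAT8-cKO label and 1377 CPM under the WT label. Of the 12, 10 were past 2-fold, all lower, and none was at 0 in either library. The part of fat in the Cyp2e1 value was not tested, and in bulk skin fewer cells of a type and less RNA per cell cannot be told apart.

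Cyp2f2 (chromosome 7 from 27119909 to 27133660), known for activating naphthalene in mouse airway club cells, had 333 counts in the library labelled KAT8-cKO and 768 in that labelled WT, 2.91-fold lower (interval 2.55 to 3.31). The 4 club cell markers were at or near 0, with 1 count in the library labelled KAT8-cKO and none in that labelled WT. Scgb1a1, Scgb3a2 and Sftpb were at 0 in both. Cyp2f2 shares 8.997% of its 50-base words with the antisense gene Gm15883, which had 4 counts under the KAT8-cKO label and 0 under the WT label. Cyp2b19, an arachidonic acid epoxygenase of mouse keratinocytes, had 924 counts under the KAT8-cKO label and 436 under the WT label, a ratio of 1.68 (1.5 to 1.89). Cyp2b10, in liver a target of the receptor encoded by Nr1i3, had 387 counts in the library labelled KAT8-cKO and 454 in that labelled WT, a ratio of 0.677 (0.589 to 0.777). Nr1i3 had no counts in either library, and neither had Nr1i2, which encodes the pregnane X receptor.

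Cyp2b23 had 39 counts in the library labelled KAT8-cKO and 0 in that labelled WT, at least 10.3-fold higher when the library labelled WT is set to 3 counts. The weaker CYP2 genes stayed inside 2-fold on the log2 scale. Cyp2g1, known from olfactory mucosa, had 26 counts under the KAT8-cKO label and 5 under the WT label, a plain ratio of 4.13 (interval 1.56 to 13.8). Cyp2w1 had 31 counts under the KAT8-cKO label and 11 under the WT label, a plain ratio of 2.24 (1.09 to 4.93). Cyp2d22 had 86 counts in the library labelled KAT8-cKO and 107 in that labelled WT, a ratio of 0.638 (0.475 to 0.855). Cyp2u1, a fatty acid hydroxylase, had 19 counts under the KAT8-cKO label and 30 under the WT label, a ratio of 0.503 (0.267 to 0.923). Of the 50-base words of Cyp2u1, 12.3% occur in other genes.

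In CYP3A, whose enzymes oxidise drugs and steroids, the 2 measured genes went in opposite directions. Cyp3a57 (chromosome 5 from 145345279 to 145390926) had 174 counts in the library labelled KAT8-cKO and 10 in that labelled WT, a ratio of 13.8 (interval 7.33 to 29.3) and the highest log2 ratio of the family, 2.80. Cyp3a13 (chromosome 5 from 137892932 to 137921619) had 74 counts under the KAT8-cKO label and 180 under the WT label, 3.06-fold lower (2.33 to 4.07). Summed over the subfamily the level was 17.4 CPM in the library labelled KAT8-cKO and 16.5 CPM in that labelled WT, a ratio of 1.05 (0.869 to 1.28). Cyp3a57 shares 6.87% of its 50-base words with Cyp3a59, which had 0 counts in both libraries, and Cyp3a13 shares none with any gene.

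CYP2J enzymes turn arachidonic acid into epoxides, and 1 of the 4 measured genes stood apart. Cyp2j12 (chromosome 4 from 96099318 to 96141152) had 167 counts in the library labelled KAT8-cKO and 11 in that labelled WT, a ratio of 12.1 (interval 6.56 to 24.6). Cyp2j8 had 21 counts under the KAT8-cKO label and 4 under the WT label, a ratio of 4.17 with a wide interval (1.41 to 16.7), and a log2 ratio of 0.86. Cyp2j6, with the most counts of the subfamily, had 296 counts in the library labelled KAT8-cKO and 284 in that labelled WT, which after scaling is a ratio of 0.827 (0.701 to 0.977). Cyp2j9 had 93 counts under the KAT8-cKO label and 60 under the WT label. The 4 measured genes share at most 0.772% of their 50-base words with other genes.

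The 3 members with the highest log2 ratios, Cyp3a57, Cyp2j12 and Cyp2b23, were below 1 CPM in the library labelled WT. Sebaceous gland markers were higher in the library labelled KAT8-cKO too, at 9453 CPM summed over 13 genes, against 2104 CPM in that labelled WT, a ratio of 4.49 (interval 4.43 to 4.55). The most abundant, Scd1, had 5012 CPM under the KAT8-cKO label and 1456 CPM under the WT label. Of the 13 measured markers 11 were past 2-fold, all higher, and none was at 0. Other marker lists given below, such as those of T cells, cartilage and hair follicle, were higher under the KAT8-cKO label as well. The 3 members were picked by their ratios, and the part of any marker list in their values was not tested.

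In the wider list of 16 eicosanoid genes, 15 were measured (median -0.87). Of these 7 were lower (background 8.63%) and 1 was higher (4.56%). Ephx2, the epoxide hydrolase that acts on the products of epoxygenases, had 10.96 CPM in the library labelled KAT8-cKO and 60.8 CPM in that labelled WT. Lower too were the lipoxygenase genes Alox12 (3.14-fold), Alox12b (3.25-fold), Alox5 (2.32-fold) and Alox8 (2.30-fold), the lipoxygenase partner gene Alox5ap (3.15-fold) and the prostaglandin synthase gene Ptgs2 (3.66-fold). The higher gene was Alox12e, an epidermal lipoxygenase of mouse, with 20.6 CPM in the library labelled KAT8-cKO and 3.04 CPM in that labelled WT.

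The CYP4 genes, which hydroxylate the far end of fatty acids and leukotrienes, held 1 member lower and 1 higher in the library labelled KAT8-cKO, a leukocyte gene and a barrier gene. Cyp4f18 (chromosome 8 from 71988482 to 72009626), which in mouse neutrophils oxidises leukotriene B4, had 377 counts (25.98 CPM) in the library labelled KAT8-cKO and 1807 (157 CPM) in that labelled WT. It was 6.04-fold lower (interval 5.40 to 6.76). Neutrophil markers were lower as well, at 2853 CPM over 10 genes in the library labelled KAT8-cKO and 8197 CPM in that labelled WT (2.87-fold), and macrophage markers summed to 1173 CPM under the KAT8-cKO label and 2931 CPM under the WT label (2.50-fold). The most abundant were S100a9, with 2372 CPM under the KAT8-cKO label and 4739 CPM under the WT label, and Lyz2, with 376 CPM under the KAT8-cKO label and 939.9 CPM under the WT label. In these lists 7 of 9 and 5 of 10 measured genes were past 2-fold, all lower, and none was at 0. Their part in the Cyp4f18 value was not tested. Zfp961 overlaps Cyp4f18 on the other strand and went the other way, with 103 counts under the KAT8-cKO label and 32 under the WT label.

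Cyp4f39 (chromosome 17 from 32452723 to 32493320), the mouse counterpart of human CYP4F22, adds the terminal hydroxyl group that acylceramides of the skin barrier need. It had 1273 counts (87.7 CPM) in the library labelled KAT8-cKO and 484 (42.0 CPM) in that labelled WT, a ratio of 2.09 (interval 1.88 to 2.32). Other acylceramide genes went both ways, with 2 higher and 2 lower of 10 and a median of -0.76. Elovl4, which makes the very long chains that Cyp4f39 acts on, had 2170.4 CPM in the library labelled KAT8-cKO and 517 CPM in that labelled WT, and the fatty acid transporter gene Slc27a4 had 702 CPM under the KAT8-cKO label and 205 CPM under the WT label. Cers3, the ceramide synthase of this pathway, had 53.3 CPM under the KAT8-cKO label and 134 CPM under the WT label, and Sdr9c7, a later oxidising enzyme, had 21.7 CPM under the KAT8-cKO label and 49.9 CPM under the WT label. Markers of differentiated keratinocytes were lower, at 2999 CPM in the library labelled KAT8-cKO and 7510.3 CPM in that labelled WT, with 9 of 11 past 2-fold, none at 0, and Krt1 at 924 CPM under the KAT8-cKO label and 2431 CPM under the WT label. Cyp4f39 had the opposite direction to that list, whose part in its value was not tested.

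The remaining CYP4 genes lay within 2-fold on the log2 scale with the added 1 CPM. Cyp4b1, a fatty acid hydroxylase of lung and other epithelia, had 415 counts under the KAT8-cKO label and 227 under the WT label, a ratio of 1.45 (interval 1.23 to 1.71). Cyp4v3, the counterpart of the human eye disease gene CYP4V2, had 106 counts in the library labelled KAT8-cKO and 141 in that labelled WT, a ratio of 0.597 (0.459 to 0.773). Cyp4f13 had 168 counts in both libraries, Cyp4f16 had 175 in the library labelled KAT8-cKO and 122 in that labelled WT, and Cyp4f17 had 124 under the KAT8-cKO label and 142 under the WT label. Cyp4f37 had 27 counts under the KAT8-cKO label and 7 under the WT label, a plain ratio of 3.06 (1.301 to 8.33) but a log2 ratio of 0.83. Of the 50-base words of Cyp4f16, 16.3% also occur in Cyp4f37, so how reads divide between them is uncertain.

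Of the 3 CYP26 genes, whose enzymes break down retinoic acid, Cyp26b1 alone was measured. Cyp26b1 (chromosome 6 from 84571414 to 84593908) had 2053 counts (141 CPM) in the library labelled KAT8-cKO and 1092 (94.8 CPM) in that labelled WT. It had the most counts of any member in the library labelled KAT8-cKO, with a ratio of 1.49 (interval 1.39 to 1.61) that lay within 2-fold. Its relatives were nearly absent, Cyp26a1 with 6 counts under the KAT8-cKO label and 8 under the WT label, and Cyp26c1 with 0 under the KAT8-cKO label and 2 under the WT label. Of 14 measured genes that make, bind or sense retinoic acid, 3 were lower (background 8.63%) and none higher (4.56%), with a median of -0.37. Aldh1a1, which makes retinoic acid, had 8.82 CPM in the library labelled KAT8-cKO and 47.6 CPM in that labelled WT, 5.39-fold lower. Dhrs9, a retinol dehydrogenase, was 4.85-fold lower and the binding protein gene Crabp2 2.45-fold lower.

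Vitamin D enzymes were near the limit of measurement. Cyp27b1, which makes the active hormone, had 21 counts in the library labelled KAT8-cKO and 6 in that labelled WT, a ratio of 2.78 (interval 1.08 to 8.41) and a log2 ratio of 0.69. Cyp2r1, which carries out the step before it, had 15 counts under the KAT8-cKO label and 7 under the WT label, and its interval (0.653 to 4.93) included 1. Cyp24a1, the usual target of the active receptor, had no counts. The receptor gene Vdr had 70.8 CPM in the library labelled KAT8-cKO and 31.8 CPM in that labelled WT, a ratio of 2.23 (1.98 to 2.52). Of 6 measured vitamin D pathway genes 3 were higher and 1 was lower. Trpv6, a calcium channel gene, had 105 counts under the KAT8-cKO label and 23 under the WT label, and Dhcr7, which uses up the vitamin D precursor, had 174 CPM under the KAT8-cKO label and 69.8 CPM under the WT label. Gc, the vitamin D carrier of plasma, had 0 counts under the KAT8-cKO label and 14 under the WT label, at least 5.88-fold lower.

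Among sterol enzymes, Cyp7b1 was the member past 2-fold. Cyp7b1 (chromosome 3 from 18071950 to 18243338), which hydroxylates oxysterols and some steroids, had 1058 counts (72.9 CPM) in the library labelled KAT8-cKO and 346 (30.0 CPM) in that labelled WT. The ratio was 2.43 (interval 2.15 to 2.75). Cyp27a1, which oxidises the side chain of cholesterol in mitochondria, had 125 counts under the KAT8-cKO label and 173 under the WT label, a ratio of 0.574 (0.452 to 0.726). Cyp39a1, an oxysterol hydroxylase of liver, had 141 counts under the KAT8-cKO label and 81 under the WT label. Cyp46a1, the cholesterol hydroxylase of brain, had 16 counts under the KAT8-cKO label and 10 under the WT label. Cyp8b1, a bile acid enzyme, had 11 counts under the KAT8-cKO label and 5 under the WT label, under 1 CPM in both.

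Steroid hormone enzymes were weak. Cyp11a1, which makes pregnenolone from cholesterol, had 103 counts in the library labelled KAT8-cKO and 38 in that labelled WT, a ratio of 2.15 (interval 1.47 to 3.21) but a log2 ratio of 0.91 with the added 1 CPM. Cyp17a1, which acts further along, had 16 counts under the KAT8-cKO label and 14 under the WT label, and Cyp11b1, of the adrenal cortex, had 0 counts under the KAT8-cKO label and 2 under the WT label. An exon of Cyp11a1 overlaps Gm17322, which had 0 counts under the KAT8-cKO label and 7 under the WT label. The list of other steroid genes had 4 measured, of which 2 were higher and 1 was lower. Hsd3b6, which acts on the product of Cyp11a1, had 174 counts in the library labelled KAT8-cKO and 4 in that labelled WT, a ratio of 34.5 (13.2 to 128.2). Srd5a1, a steroid reductase, had 48.6 CPM under the KAT8-cKO label and 15.97 CPM under the WT label, and Hsd11b1, which activates glucocorticoids, had 19.8 CPM under the KAT8-cKO label and 57.3 CPM under the WT label. Cyp20a1, a P450 with no settled substrate, had 296 counts under the KAT8-cKO label and 199 under the WT label, a ratio of 1.18 whose interval (0.983 to 1.42) included 1.

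In the machinery that serves P450 enzymes, none of the 10 measured electron partners was past 2-fold (median 0.13). Over all measured genes 13.2% were, so for a list of 10 this count lies near the background. Por itself had 129 CPM in the library labelled KAT8-cKO and 178 CPM in that labelled WT. The partner genes with the highest mean level were Cyb5b, a cytochrome b5 (281 CPM under the KAT8-cKO label and 197 CPM under the WT label), and Cyb5r3, its reductase (248 CPM under the KAT8-cKO label and 180 CPM under the WT label). Of 10 genes of haem synthesis and breakdown 1 was higher, Alad, the enzyme of an early step (44.7 CPM under the KAT8-cKO label and 21.1 CPM under the WT label), and 1 was lower, Hmox1, which breaks haem down (128 CPM under the KAT8-cKO label and 315 CPM under the WT label). No measured gene of 9 receptors for lipids and foreign compounds was past 2-fold, again near the background of 13.2%. The highest were Rxra (286 CPM under the KAT8-cKO label and 201 CPM under the WT label) and Ppard (91.0 CPM under the KAT8-cKO label and 115 CPM under the WT label). Nr1h3, which encodes the oxysterol receptor LXR alpha, came closest to 2-fold. It had 10.5 CPM under the KAT8-cKO label and 21.9 CPM under the WT label, a plain ratio of 0.479 (0.389 to 0.588). Of 11 measured conjugating genes 3 were lower (background 8.63%), Gstt1 (2.90-fold), Sult1a1 (3.87-fold) and Gsta4 (2.18-fold).

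Several members of a shared cluster differed in direction. The 15 members on chromosome 7 include 11 detected ones. Cyp2b23 was higher and Cyp2f2 lower in the library labelled KAT8-cKO within the same gene cluster, with other members between them, while Cyp2e1 lies apart. On chromosome 17, Cyp4f39 (log2 ratio 1.04) is followed by Cyp4f17 (-0.48) and Cyp4f16 (0.17). The CYP2J genes on chromosome 4 were Cyp2j12 (2.68), Cyp2j8 (0.86), Cyp2j6 (-0.26) and Cyp2j9 (0.25). The ratio intervals of Cyp4f16 (0.899 to 1.45) and Cyp2j9 (0.880 to 1.73) included 1, so counting error alone leaves their direction open. Chromosome 19 carries 18 members, among them the CYP2C genes, and 3 of the 18 were detected.

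**Figure D4:**
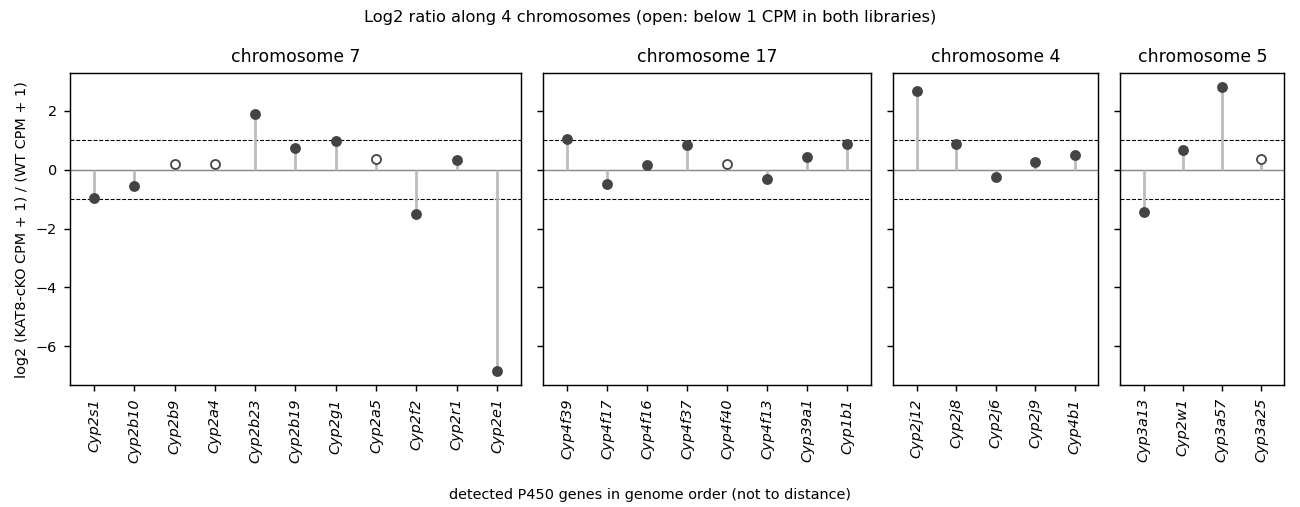
Points give the log2 ratio (KAT8-cKO over WT, 1 CPM added to both) of detected P450 genes in genome order on 4 chromosomes, without distances. Filled points are measured genes and open ones lie below 1 CPM in both libraries, and neighbours such as Cyp4f39 at 1.04 and Cyp4f17 at -0.48 differ.

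The tissue label was checked against marker genes. Basal keratinocyte markers were the most abundant list, at 27198 CPM over 7 genes in the library labelled KAT8-cKO and 22578 CPM in that labelled WT, with 2 of 7 past 2-fold, both higher, none at 0, and Krt14 alone at 12064 CPM under the KAT8-cKO label and 12587 CPM under the WT label. Beyond the lists given above, muscle markers summed to 2909 CPM in the library labelled KAT8-cKO and 14460.3 CPM in that labelled WT (all 11 past 2-fold, lower, none at 0), and red cell markers to 9.03 CPM under the KAT8-cKO label and 172 CPM under the WT label. All 6 red cell markers were past 2-fold, lower, and Slc4a1 was at 0 under the KAT8-cKO label. The most abundant gene of each was Acta1 for muscle, with 579 CPM under the KAT8-cKO label and 3739 CPM under the WT label, and Hbb-bs for red cells, with 4.55 CPM under the KAT8-cKO label and 83.2 CPM under the WT label. T cell markers summed to 242 CPM under the KAT8-cKO label and 97.2 CPM under the WT label, and cartilage markers to 184 CPM under the KAT8-cKO label and 115 CPM under the WT label. Hair follicle markers summed to 40.9 CPM under the KAT8-cKO label and 26.99 CPM under the WT label, and mast cell markers to 191 CPM under the KAT8-cKO label and 149.9 CPM under the WT label. Fibroblast markers summed to 4473 CPM under the KAT8-cKO label and 3509 CPM under the WT label. Melanocyte markers summed to 28.0 CPM under the KAT8-cKO label and 31.4 CPM under the WT label, and endothelial markers to 215 CPM under the KAT8-cKO label and 280.5 CPM under the WT label. Past 2-fold were 4 of 6 measured T cell markers, 4 of 6 for cartilage, 3 of 6 for hair follicle and 1 of 6 for mast cells, all higher. For fibroblasts 1 of 8 was higher and 2 were lower, for melanocytes 1 of 5 was lower, and for endothelium 0 of 7 passed. In the order of these sums, the most abundant genes were Thy1, Acan, Tchh, Mcpt4, Col3a1, Mitf and Pecam1. Their part in any P450 value was not tested.

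**Figure D5:**
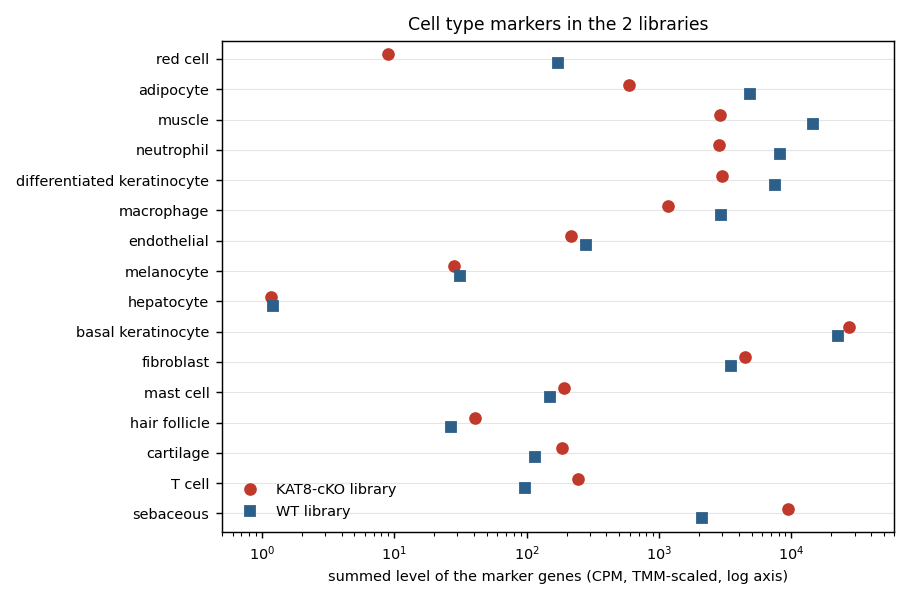
Points give the summed level of 16 cell type marker lists in CPM on a log axis, circles for the library labelled KAT8-cKO and squares for the library labelled WT, ordered by ratio. Red cell and adipocyte markers lie furthest below the library labelled WT, at 9.03 CPM (KAT8-cKO) against 172 CPM (WT) and 597 CPM (KAT8-cKO) against 4838 CPM (WT). Sebaceous markers lie furthest above it, at 9453 CPM (KAT8-cKO) against 2104 CPM (WT).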

How the data were processed

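Per the labels' protocols, total RNA of ear skin was extracted, mRNA was captured on beads and fragmented, and libraries were made for Illumina sequencing. The authors deposited unnormalized whole-number counts for each Ensembl gene ID. Per the submitters' processing notes HISAT2, StringTie 1.3.0, edgeR and mm10 were used, in roles that the notes leave out. No source used here gives the counting tool, the annotation release or the use of strand, so reads of overlapping genes cannot be told apart.

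Symbols, coordinates and exon lengths were taken from GENCODE M21 (GRCm38, the assembly of mm10), which named 34267 of 34745 genes. Another 5 P450 symbols that end in a letter, such as Cyp4a12a, were not members and had no counts. Counts were scaled to CPM by library totals times factors from the trimmed mean of M values (edgeR 4.0.16, R 4.3.3), 1.06 for KAT8-cKO and 0.946 for WT. A single count was worth 0.0689 CPM for KAT8-cKO and 0.0868 CPM for WT. Log2 ratios used a pseudocount of 1 CPM, which understates differences of low genes. Plain ratios carry Clopper-Pearson intervals (scipy 1.17.1), and a library at 0 was set to 3 counts. Those intervals treat each read as a separate molecule, which PCR copies are not. No test, DESeq2 or edgeR, was run, because each group had 1 library.

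Shared sequence is the percent of a gene's 50-base transcript words found in transcripts of another gene, on either strand. Every measured member was named, with every listed pathway gene past 2-fold or, where there was none, the 2 with the highest mean level, and each marker list by its counts, its sum and its most abundant gene. The P450 family, the pathway lists and the marker lists were chosen with earlier results of these data known. The result of 1 marker list is not reported here. The calculations were tested on simulated data. Alternatives were other scalings, a pseudocount of 0.1 CPM, filters at 5 CPM or none, members without exon overlap, and symbols with a trailing letter.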

Additional observations from a re-analysis of the deposited data

How the results depend on the processing

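The counts of 6 higher and 4 lower members and their median of 0.30 were recomputed under each setting named in the processing. A filter at 5 CPM left 26 members, 5 higher and 4 lower, with a median of 0.20. Among all genes that passed that filter 554 were higher and 1120 lower, but how many passed is not given here, so no share follows. With no filter, the 46 detected members gave 6 higher, 4 lower and a median of 0.21. Scaling by the median of gene ratios, or adding symbols with a trailing letter, left 6 higher, 4 lower and a median of 0.30. With a pseudocount of 0.1 CPM 12 members were higher and 5 lower, since Cyp11a1, Cyp27b1, Cyp2g1, Cyp2j8, Cyp2w1 and Cyp4f37 joined the higher ones and Cyp2s1 the lower ones. Over all measured genes this pseudocount gave 1012 higher and 1722 lower, against 695 higher and 1315 lower in the main setting. With plain CPM, and with totals without the 50 most abundant genes, 9 were higher and 4 lower, with medians of 0.40 and 0.43. Cyp11a1 and Cyp2g1 joined the higher members in both, Cyp1b1 with plain CPM and Cyp2j8 without the 50 genes. These scalings also shifted the median of all genes to 0.16 and 0.11, against 0.01. Among all genes that passed the filter at each scaling, plain CPM gave 964 higher and 1056 lower. Totals without the 50 genes gave 915 higher and 1204 lower. How many passed at each is not given here. With the 6 members that overlap another gene's exon left out, Cyp2f2 and Cyp4f18 among them, 2 were lower and the median was 0.47. Requiring 1 CPM in both libraries, chosen after seeing the data, left 3 higher and a median of -0.17. No member past 2-fold changed direction under any scaling or pseudocount, but that was fixed beforehand. An equal pseudocount in both libraries cannot turn a direction, and the scalings moved ratios by far less than 2-fold. Cyp17a1, at -0.08, was at 0.01 with plain CPM. Counting a member as detected from 10 counts on gave 38 in place of 46. No paired analysis was possible because each group had 1 library, and no library could be left out. Depth limits members with few counts, such as Cyp2j8, whose interval ran from 1.41 to 16.7.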
